A study of Rattus norvegicus with 4 samples.

Results

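The integrin subunit genes examined here were Itgam, Itgal, Itgax, Itgb2, Itga4, Itga5, Itga6, Itgb1, Itgb3 and Itgb4, 10 genes picked by name as chains that macrophages can carry, in NR8383 cells exposed to NM403. Of these, 9 were matched through their transcript accessions to a probe of the array, out of 16581 rat genes with a named probe, and they were read by 13 probes with 32 spots per array. Itgax was matched to no probe and has no value below. NR8383 is a rat alveolar macrophage line started from cells washed out of a normal lung, and the submitters describe it as growing 50% attached and 50% floating. The 4 samples form 1 group: cultures after 20 passages, seeded for 48 h in 25 cm2 flasks in medium with 15% serum and exposed for 4 h to 0.8 cm2 of NM403, a carbon nanotube material, per cm2 of culture. The design text calls them biological replicates. Unexposed cultures, which the design text names, were not analysed here, so every value describes exposed cells and none is a response to the nanotubes. In such bulk RNA, fewer cells with a transcript and less of it per cell cannot be told apart.

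Each integrin is a pair of 1 alpha and 1 beta chain that spans the membrane, binds matrix or a receptor on another cell outside, and is tied to actin inside through talin, kindlin and their partners. The beta 2 chain, encoded by Itgb2, is largely restricted to leukocytes. With the product of Itgam it forms complement receptor 3 (also called Mac-1), which takes up complement-coated particles, with that of Itgal it forms LFA-1, which binds ICAM proteins, and with that of Itgax it forms complement receptor 4. The beta 1 chain, from Itgb1, pairs with the products of Itga4 (VCAM1 and fibronectin), Itga5 (fibronectin) and Itga6 (laminin). The beta 3 chain, from Itgb3, pairs with those of Itgav and Itga2b, and the beta 4 chain, from Itgb4, pairs with that of Itga6 alone and is best known from the hemidesmosomes of epithelia.

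The RefSeq promoter table of build GRCr8 held 5 of the 10 genes. Windows of 3 are shown, chosen after their levels were seen. Itga4 and Itgb1 moved together across the cultures, in an order that 34.5% of all detected genes shared. Itgb2 and Itga5 moved together too, in the reverse order, and pairs of members were not ranked by likeness. For Itgam the order of the cultures depended on the scaling. Each window is the 250 bases before the annotated start of transcription, on the plus strand, 5′ to 3′, with GAGGAA (a core that ETS factors such as PU.1 can bind) and GGGCGG (the GC box) in capitals on either strand. The windows lie at chr1:192089342-192089591 for Itgam, chr3:84569765-84570014 for Itga4 and chr19:73602027-73602276 for Itgb1.
Itgam: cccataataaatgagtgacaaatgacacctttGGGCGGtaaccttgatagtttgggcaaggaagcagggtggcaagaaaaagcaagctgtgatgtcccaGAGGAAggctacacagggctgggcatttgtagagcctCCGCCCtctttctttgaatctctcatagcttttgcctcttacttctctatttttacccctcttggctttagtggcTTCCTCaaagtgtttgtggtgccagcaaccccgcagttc
Itga4: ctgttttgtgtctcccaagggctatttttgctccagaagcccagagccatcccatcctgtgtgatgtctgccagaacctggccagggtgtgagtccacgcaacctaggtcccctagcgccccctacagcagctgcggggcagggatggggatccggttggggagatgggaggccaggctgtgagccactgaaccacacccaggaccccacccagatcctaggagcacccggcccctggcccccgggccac
Itgb1: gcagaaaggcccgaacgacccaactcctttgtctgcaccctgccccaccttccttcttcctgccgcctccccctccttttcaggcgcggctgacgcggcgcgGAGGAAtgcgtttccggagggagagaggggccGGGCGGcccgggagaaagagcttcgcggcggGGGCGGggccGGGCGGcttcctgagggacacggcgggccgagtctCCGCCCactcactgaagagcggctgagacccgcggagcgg
GAGGAA or its complement TTCCTC occurred in 2 places before Itgam, 1 before Itgb1 and 0 before Itga4, and 23.3% of all 33469 windows of this length held it. GGGCGG or CCGCCC occurred in 2 places before Itgam, 4 before Itgb1 and 0 before Itga4, against 30.5% of all windows with it, and no match of either motif overlapped the other. TATAAA or TTTATA, held by 12.9% of all windows, was found in none of the 3. The base composition was 48.4% G and C before Itgam, 64.4% before Itga4 and 71.2% before Itgb1, with a median of 51.2% over all windows. These matches describe letters in a window and say nothing of what binds there. In the same annotation, Itgam, Itgax and Itgad follow one another on chromosome 1 with no other protein-coding gene between them.

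Levels below are log2 signals of a spot, or the mean over the spots of a probe, minus a value of the same array, the 75th percentile of its signals over the probes detected in every sample. A level describes 1 probe across cultures, and levels of different probes cannot be ranked. A probe was detected where Feature Extraction, Agilent's image software, called it well above background. All 4 arrays lay on 1 slide, and with 4 of them every SD is itself imprecise. The software counted 2 quality measures out of range on replicate 4 and 0 on the others. The share of spots well above background ran from 45.9% to 50.8% per array. Over the 7935 genes whose brightest probe was detected on all arrays, the correlation between arrays was 0.996 for replicates 1 and 3 and 0.992 for replicates 2 and 4, against 0.967 to 0.970 for the other pairs. It is a correlation across genes, which are not independent replicates, and all the arrays share probes and slide.

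Transcripts of 8 of the 9 measured integrin genes were detected on all 4 arrays, against 47.9% of all named genes. The exception was Itgal, which no array detected. Among the 13 probes, 11 were detected on all arrays, 1 on some and 1 on none. The share with detection on every array was 34.2% over the 45598 probes for genes. Of these, 24489 matched no gene symbol, whereas all 13 integrin probes did, so the 34.2% is not a like-for-like background. The share for probes with a symbol is not given here. The SD over the 4 cultures of the 8 detected genes ran from 0.152 to 0.675 with a median of 0.222, beside a median of 0.234 over all detected genes. The median range between the highest and lowest culture was 1.40-fold for these genes and 1.40-fold for all detected genes. A range above 2-fold occurred in 1 of the 8, Itgb3, and in 13.6% of all detected genes.

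**Figure D1:**
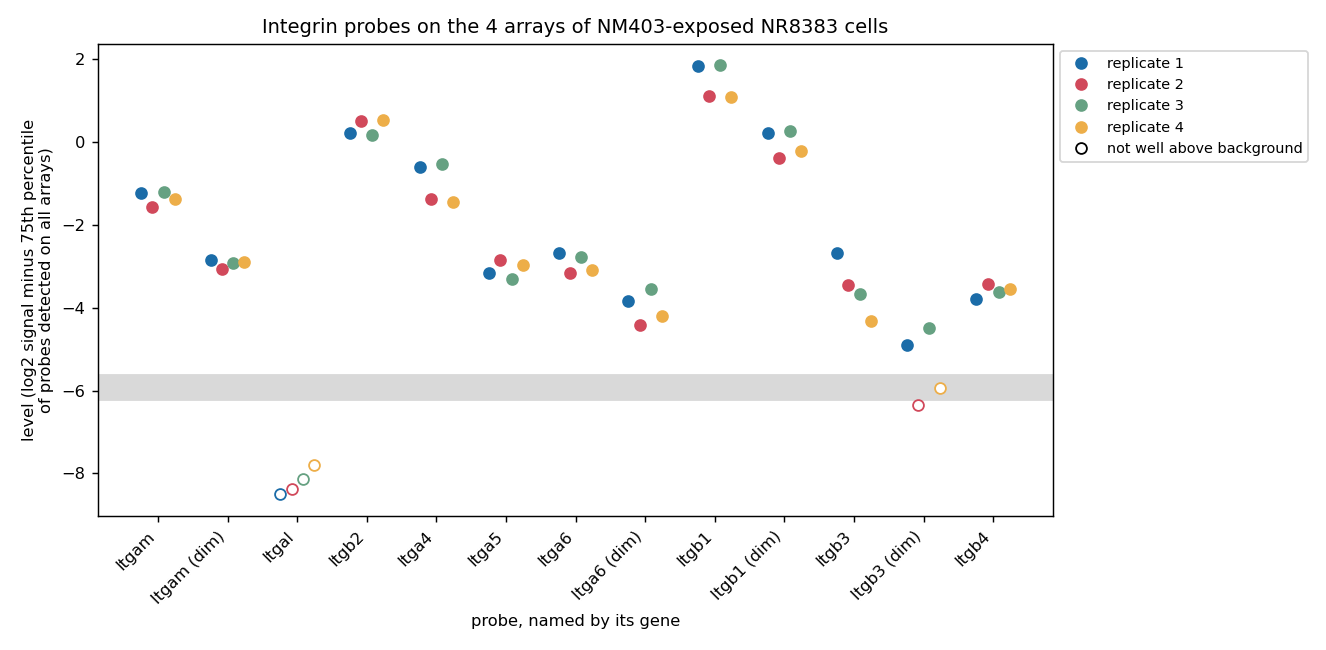
Level of each of the 13 integrin probes (vertical axis, log2 signal relative to the 75th percentile of detected probes) on the 4 arrays, with open points where the probe was not well above background; "dim" marks the dimmer probe of a gene, and the grey band spans the lowest level of any detected probe on the 4 arrays, -6.23 to -5.63. Itgal lies below the band on every array, and the Itgb1 and Itga4 points split by about the same amount on the same arrays.

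Of the leukocyte beta 2 family, transcripts of the shared beta chain and the Mac-1 alpha chain were detected and that of the LFA-1 alpha chain was not. Itgb2 (probe A_42_P591344) read 0.23, 0.51, 0.17 and 0.55 on replicates 1 to 4, with a mean of 0.37 ± 0.19 (SD, n = 4). Replicates 2 and 4 lay above replicates 1 and 3, and the range was 1.30-fold. Itgam had 2 probes. The brighter (A_44_P1161690) read -1.23, -1.58, -1.21 and -1.37, a mean of -1.35 ± 0.17 (SD, n = 4) with a 1.29-fold range, and its SD was 0.0861 without replicate 2, the lowest array. The dimmer Itgam probe (A_43_P15993) read -2.85, -3.07, -2.91 and -2.88, so that replicate 2 was again lowest and the other 3 arrays lay close together. The range of that probe was 1.17-fold. The Itgal probe (A_44_P452222) read -8.51, -8.38, -8.14 and -7.79, close to the median of all probes that were not detected, which lay between -8.27 and -7.82 on the 4 arrays. Its software error was as large as the signal on every array, 100.2% to 100.3%. This probe therefore gives a bound and no level, and another Itgal transcript that it does not cover was not measured.

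Within the beta 1 family, Itgb1 and Itga4 moved together across the cultures and Itga5 moved the other way. Neither order was particular to these genes. Replicates 1 and 3 both exceeded replicates 2 and 4 in 34.5% of all detected genes, and the reverse held in 47.3%. Itgb1 (A_44_P1159924) was printed 10 times per array and read 1.85, 1.11, 1.85 and 1.09 on replicates 1 to 4, a mean of 1.48 ± 0.43 (SD, n = 4). Replicates 1 and 3 were higher than replicates 2 and 4. The SD over its spots within an array, a technical spread that says nothing of the spread between cultures, was 0.0491 to 0.0670 for the spots kept and 0.0559 to 0.214 over all 10. A second Itgb1 probe (A_44_P507943), printed 2 times, read 0.22, -0.39, 0.27 and -0.22 with replicates 1 and 3 again higher. The range was 1.69-fold for the first probe and 1.58-fold for the second. Itga4 (A_64_P074998), the alpha 4 chain, read -0.60, -1.38, -0.52 and -1.45, a mean of -0.99 ± 0.50 (SD, n = 4) with a 1.91-fold range. Its deviations from its own mean were 0.39, -0.39, 0.47 and -0.46 on replicates 1 to 4, beside 0.37, -0.36, 0.38 and -0.38 for the brighter Itgb1 probe. Itga5 (A_42_P783301), the fibronectin receptor alpha chain, read -3.17, -2.84, -3.30 and -2.97, a mean of -3.07 ± 0.21 (SD, n = 4). For Itga5, replicates 2 and 4 were the higher arrays, and the range was 1.38-fold.

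Transcripts of both laminin-binding chains were detected on all arrays. Itga6 had 2 probes, and the brighter (A_44_P1086014) read -2.67, -3.17, -2.78 and -3.08, a mean of -2.93 ± 0.24 (SD, n = 4) with a 1.41-fold range. The dimmer (A_44_P187056) read -3.83, -4.41, -3.55 and -4.20 with a wider range of 1.81-fold. Both placed replicates 1 and 3 above replicates 2 and 4 on this scale, an order that the brighter lost under quantile normalization and with the percentile of all probes. Itgb4 (A_64_P055738), also printed 10 times, read -3.80, -3.43, -3.63 and -3.55, a mean of -3.60 ± 0.15 (SD, n = 4). Its SD was the smallest of the 8 detected genes on the scale used here, and it was 0.0980 without replicate 1, the lowest array. That rank depended on the scaling. Under quantile normalization the SD of Itgb4 was 0.355, above those of Itga6 (0.0755) and Itgam (0.0933). Of 12 measured epithelial markers, 0 were detected on all arrays, 10 were detected on none, among them the keratin genes Krt5, Krt8, Krt18 and Krt19 and the adhesion genes Epcam and Cdh1, and Sftpc and Lamb3 were detected on 1 and 2 arrays.

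**Figure D2:**
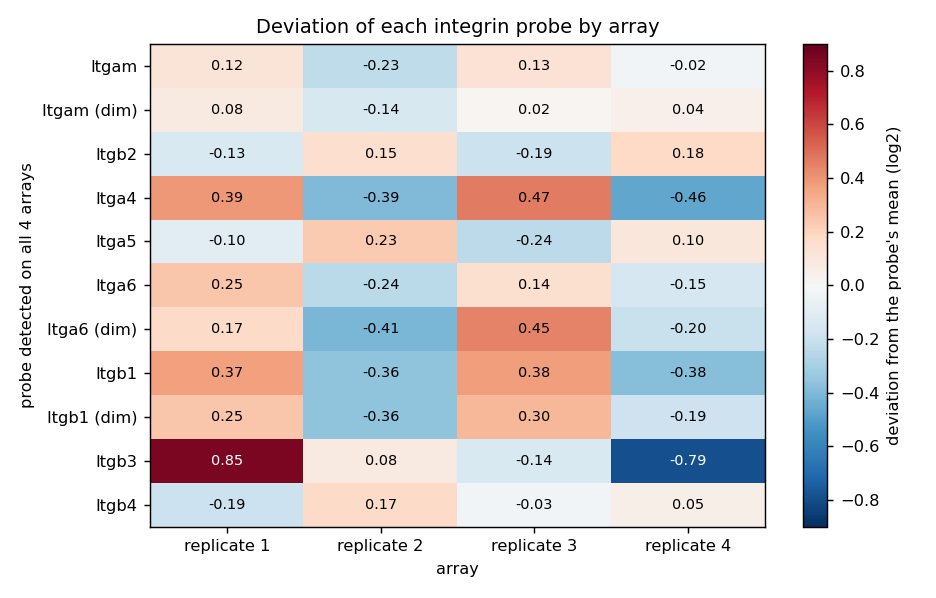
Deviation of each integrin probe from its own mean over the 4 arrays (colour and printed value, log2), for the 11 probes detected on all arrays. Itga4 and both Itgb1 probes are above their means on replicates 1 and 3, Itgb2, Itga5 and Itgb4 are below theirs on those arrays, and Itgb3 deviates by 0.85 on replicate 1 and -0.79 on replicate 4.

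Across the 8 detected genes, replicates 1 and 3 both exceeded replicates 2 and 4 in 4 (Itgam, Itga4, Itga6 and Itgb1) on the scale used here, against 34.5% of all detected genes. The reverse order held in 3 (Itgb2, Itga5 and Itgb4), against 47.3% of all detected genes. These counts are descriptions with no test, and the labels give no reason to divide the 4 cultures. The direction depended on the scaling for some genes. Itga4, Itgb1, Itgb2 and Itga5 kept their order in all 8 settings compared. Itgam lost its order under normexp background correction, quantile normalization and scaling on the array median. The dimmer Itgam probe lacked that order on the scale used here too, with replicate 4 at -2.88 and replicate 3 at -2.91. With the 75th percentile taken over all non-control probes, Itgam read 1.97, 1.98, 1.95 and 2.18, with replicates 2 and 4 above the others, and the SD of Itga6 was 0.0666 in place of 0.236. Relative to the setting used above, that scaling shifted the arrays by unlike amounts. The median probe shift, less the mean shift of the 4 arrays, was -0.17, 0.19, -0.20 and 0.18 on replicates 1 to 4. It was taken over the probes detected on all arrays.

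Itgb3, the beta 3 chain, was the most variable member, and its probes disagreed. The brighter (A_64_P066564) read -2.67, -3.44, -3.66 and -4.31 on replicates 1 to 4, a mean of -3.52 ± 0.67 (SD, n = 4) with a 3.11-fold range. The signals were 426, 232, 179 and 140 before scaling, with a software error of 10.1%, 10.5%, 10.9% and 13.4%. Replicate 1 was the highest array and replicate 4 the lowest, an order that no other detected member showed. The dimmer probe (A_44_P249690) read -4.89, -6.34, -4.49 and -5.93 and was detected on replicates 1 and 3 alone. Replicates 1 and 3 thus lay above replicates 2 and 4, as for Itga4 and Itgb1. The lower readings, on replicates 2 and 4, did not pass the detection call and had a software error of 29.7% and 27.1%. Without replicate 1 the SD of the brighter probe was 0.452, and no member had a range above 2-fold without replicate 1 or without replicate 4. Its alpha partners Itgav and Itga2b were matched to no probe. Of 8 measured platelet and megakaryocyte markers, cells known for beta 3, 2 were detected on all arrays, Gp9 at -5.18 ± 0.25 and Pf4 at -5.36 ± 0.17 (SD, n = 4), 5 on none and Ppbp on 1. The part of such RNA in the Itgb3 signal was not tested.

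The surroundings of the brighter Itgb3 spot also differed between arrays. Among the spots within 3 rows and 3 columns of it, 20 were not well above background on replicates 2, 3 and 4. On replicate 1, 7 of these 20 (35.0%) were called well above background, against 4.93% of such spots over the whole array. On replicate 4 the count was 4 of 17 (23.5%), against 2.94% over the whole array, and it was 0 of 13 on replicate 2 and 1 of 14 on replicate 3. Around the dimmer Itgb3 spot the counts were 2 of 16, 0 of 14, 3 of 17 and 4 of 18 on replicates 1 to 4. Around the spots of Itga4, Itga5, Itga6, Itgal and Itgb2 the count was at most 1 on any array. Around the brighter Itgam spot it was 4 of 13, 3 of 12, 2 of 11 and 1 of 10 on replicates 1 to 4. Within 12 rows and 3 columns of the brighter Itgb3 spot lay 27 spots of probes printed at least 10 times. Their median deviation from the median of their own probe was 0.10, 0.08, 0.03 and -0.08 on replicates 1 to 4. The part of these surroundings in the readings of Itgb3 and Itgam was not tested.

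**Figure D3:**
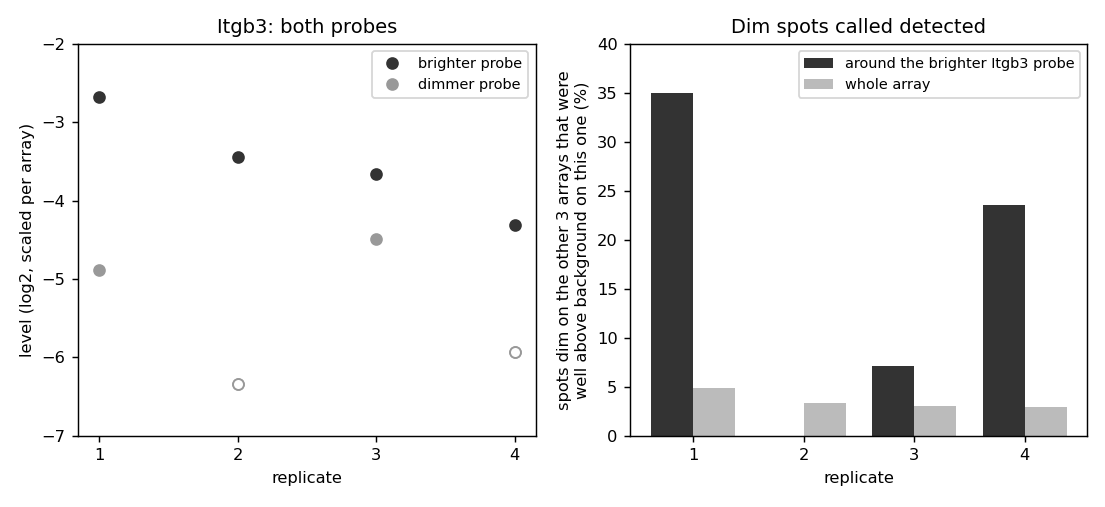
Left, level of both Itgb3 probes (log2, scaled per array) by replicate, open where not well above background. Right, share of spots dim on the other 3 arrays that were well above background on the given array (%), within 3 rows and 3 columns of the brighter Itgb3 spot (dark bars) and over the whole array (light bars), with 35.0% beside 4.93% on replicate 1.

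Itgb1 and Itgb4, with 10 spots each, allowed readings at different positions of an array to be compared. In both, 2 spots lay in the middle of the array, in a block of 73 rows and 17 columns that was outlined after seeing the data. On replicate 4 the central Itgb1 spots deviated from the median of the 10 by -0.57 and -0.27, and the central Itgb4 spots by -1.08 and -0.57. On replicate 1 the central spots of Itgb1 deviated by 0.18 and 0.20, and those of Itgb4 by 0.33 and 0.32. Feature Extraction marked the Itgb1 spots as outliers on replicates 1, 2 and 4 and they were left out. Of the central Itgb4 spots it marked both on replicate 1, 1 on replicate 4 and 0 on replicates 2 and 3. Over all detected probes printed at least 10 times, the median deviation of central spots was 0.15, 0.16, 0.03 and -0.36 on replicates 1 to 4, over 169 to 171 spots. Keeping the outlier spots gave Itgb4 levels of -3.75, -3.44, -3.63 and -3.66, and replicate 4 then no longer exceeded replicate 3. Leaving out the central spots on every array, a choice made after seeing the data, gave -3.80, -3.49, -3.65 and -3.49.

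**Figure D4:**
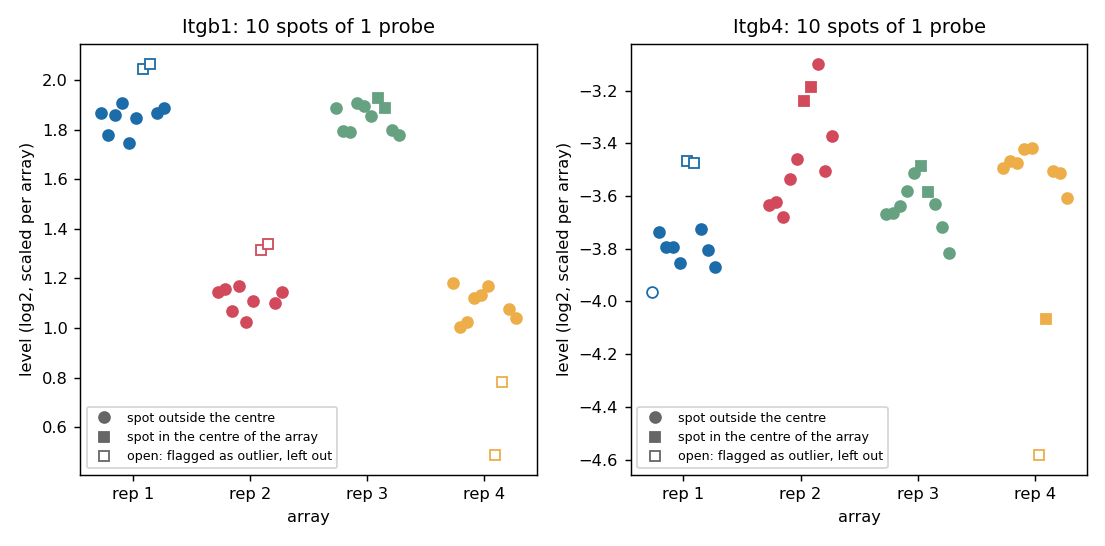
Level of each of the 10 spots of the Itgb1 probe (left) and the Itgb4 probe (right) on each array (log2, scaled per array). Squares are spots in the centre of the array and open symbols were flagged and left out; the central spots lie below the rest on replicate 4 and above most of them on replicates 1 and 2.

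Among the remaining integrin subunits, 16 were listed and 9 were measured. The rest, Itgav and Itga2b among them, were matched to no probe, so their transcripts were not read. The order of the cultures for genes outside the 10 was read on the scale used above alone. Of 9 measured subunits outside the 10 genes, 1 was detected on all arrays, 4 on 1 array each and 4 on none. The 1 was Itgae, which encodes the alpha chain known as CD103 and pairs with beta 7. It read -3.07, -3.74, -3.23 and -5.13 on replicates 1 to 4, a mean of -3.79 ± 0.93 (SD, n = 4). The only Itgae spot lies in the centre of the array, in row 195 and column 87, where 33 nearby spots of repeated probes had a median deviation of 0.19, 0.19, 0.07 and -0.70 on replicates 1 to 4. Its lowest reading was on the array with the lowest local deviation, whose part in the reading was not tested. Neither Itgb7, its partner, nor Itgad, the neighbour of Itgax in the genome, was detected on any array. Itgb5, a partner of the alpha v chain, was detected on replicate 4 alone, at -4.70 against -8.30 to -6.92 on the others. Of 7 measured dendritic cell markers, a list that holds Itgae, 4 were detected on all arrays, against 47.9% of all named genes. Of 12 markers of T cells and NK cells, 3 were (Cd3d, Lck and Cd4).

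Of 27 measured genes of integrin ligands, 9 were detected on all arrays, a share of 33.3%, against 47.9% of all named genes. Icam1, which encodes a ligand of LFA-1 and Mac-1, read 1.34, 1.62, 1.24 and 1.75, a mean of 1.49 ± 0.24 (SD, n = 4), with replicates 2 and 4 higher as for Itgb2. Vcam1, the cell-bound ligand of the alpha 4 beta 1 integrin, was detected on replicate 1 alone, at -5.77, and read -5.77 on replicate 4 without passing the detection call. Fn1, the fibronectin gene, was detected on none, in a probe printed 10 times. The ligands with the largest SD were Vwf at 0.76 ± 0.47 and Icam5 at -5.10 ± 0.45 (SD, n = 4), and a second Vwf probe had a mean of -4.62 ± 0.29.

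Of 22 measured genes that switch integrins on from inside the cell, 15 were detected on all arrays, against 47.9% of all named genes. Tln1, encoding talin, read 1.77, 2.15, 1.87 and 2.20, a mean of 2.00 ± 0.21 (SD, n = 4). Fermt3, the kindlin of blood cells, read 0.09, 0.41, 0.01 and 0.60, a mean of 0.28 ± 0.28. Both had replicates 2 and 4 above replicates 1 and 3, as did Itgb2. The GTPase genes Rap1b and Rap1a, which act upstream of talin, ran the other way, with means of 0.85 ± 0.18 for Rap1b and -4.07 ± 0.47 for Rap1a (SD, n = 4 each). Fyb1, an adaptor of this pathway, had the largest SD of the list, with a mean of -3.49 ± 0.50 on its brightest probe, and its other 2 probes were detected on 2 arrays and on none.

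Of 25 measured genes of the adhesion complex and its link to actin, 19 were detected on all arrays, against 47.9% of all named genes. Vcl, encoding vinculin, read -2.09, -2.09, -2.09 and -1.94 and was nearly level, at -2.05 ± 0.08 (SD, n = 4). Lims1 and Parvg, members of the complex around integrin-linked kinase, varied most and in opposite directions. Lims1 read -0.78, -2.17, -0.81 and -2.13, a 2.61-fold range, with replicates 1 and 3 high. Parvg, the parvin of blood cells, read 0.27, 1.21, 0.36 and 1.37, a 2.15-fold range, with replicates 2 and 4 high. Replicates 2 and 4 exceeded the others in 14 of the 19 detected genes of this list, 8 of 15 activation genes, 6 of 9 ligands, 13 of 23 signalling genes and 8 of 13 membrane partners, against 47.3% of all detected genes. The reverse held in 3 of 19, 6 of 15, 3 of 9, 6 of 23 and 3 of 13 in the same order of lists, against 34.5% of all detected genes.

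Of 27 measured genes of signalling kinases, phosphatases and exchange factors, 23 were detected on all arrays, against 47.9% of all named genes. Ptk2b, the focal adhesion kinase relative Pyk2, had a level of -0.38 ± 0.22, and Syk, the kinase recruited by ITAM adaptors, of -0.35 ± 0.13 (SD, n = 4 each). A dimmer Syk probe read -3.09, -3.92, -3.76 and -4.57, a 2.78-fold range that the brighter probe did not share. Outside the 23, named after their values were seen, Pik3cg was detected on 3 arrays, Pik3cd on 1, and Ptk2, which encodes focal adhesion kinase, and Src on none. Yes1, a Src-family kinase, and Pik3ca, a catalytic subunit of phosphoinositide 3-kinase, had the largest SDs, with levels of -3.80 ± 0.86 and -1.41 ± 0.61, and a second Yes1 probe was detected on 2 arrays. All 3 Pik3ca probes were detected and read higher on replicates 1 and 3.

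Of 15 measured genes of membrane partners of integrins, 13 were detected on all arrays, against 47.9% of all named genes. Cd47, which associates with beta 3 integrins, read 1.46, 1.41, 1.44 and 1.55, a mean of 1.47 ± 0.06 (SD, n = 4), while its dimmer probe ranged 1.61-fold and was higher on replicates 1 and 3. Plaur, the urokinase receptor that associates with Mac-1, had a level of -2.40 ± 0.15, and its 2 probes gave nearly the same mean. The tetraspanin genes Cd82 and Tspan4 had the largest SDs, at -2.14 ± 0.41 and -2.16 ± 0.33, both with replicates 2 and 4 high.

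**Figure D5:**
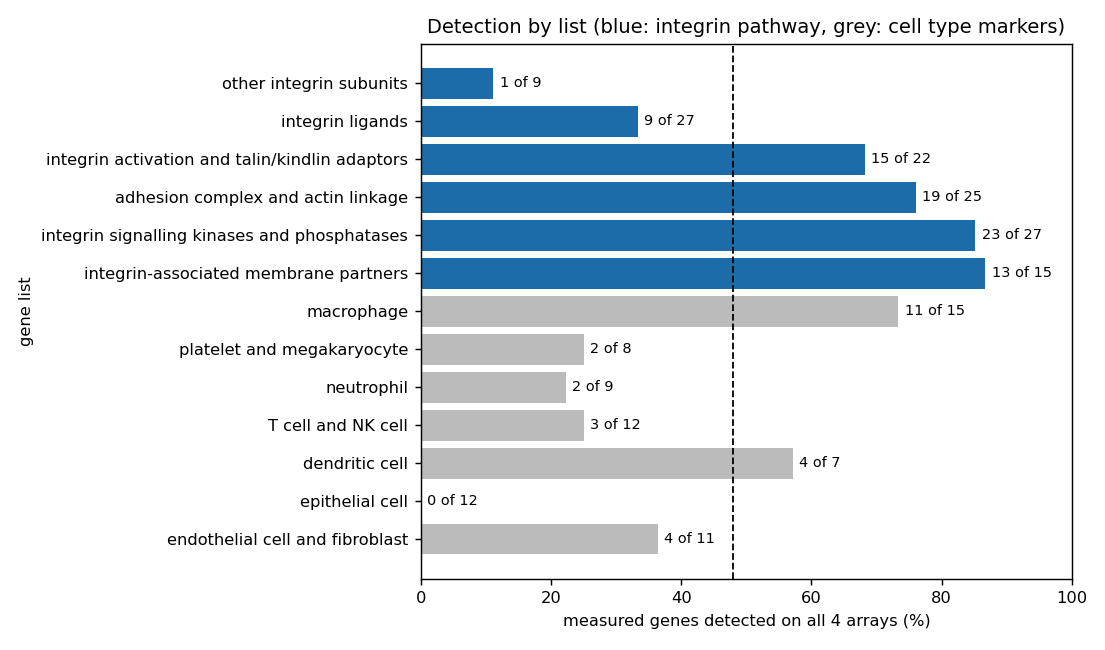
Share of the measured genes of each list that were detected on all 4 arrays (%), with the counts printed beside the bars and a dashed line at 47.9%, the share over all named genes. The 4 lists of intracellular and membrane partners of integrins lie between 68.2% and 86.7%, above the lists of ligands (33.3%) and of other subunits (11.1%).

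Macrophage markers were detected on all arrays for 11 of 15 genes, among them Cd68, Csf1r, Spi1 and Lyz2, against 47.9% of all named genes. Marco, Adgre1 and Cebpa, also macrophage genes, were detected on none and Cd163 on 3. Neutrophil markers, whose cells carry Mac-1 too, were detected on all arrays for 2 of 9 genes, Camp and Lcn2, on some for 1 and on none for 6. Endothelial and fibroblast markers were detected on all arrays for 4 of 11 genes, including Pecam1 and Dcn, on some for 2 and on none for 5.

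Likeness was measured by the largest absolute difference between the deviations of a pair of genes over the 4 arrays. Genes most like Itgb3, the member with the largest SD, included Ly6g6e (0.21) and Rhoq (0.30). Only the brightest probe of each gene was compared. For Rhoq that probe read -0.46, -1.07, -0.93 and -1.92 on replicates 1 to 4. Other Rhoq probes read -4.56, -5.34, -4.61 and -5.44, and -3.43, -4.13, -3.16 and -3.83, and their likeness to Itgb3 was not measured. With 4 arrays and 7935 genes such likeness is a description only.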

How the data were processed

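RNA of 4 exposed cultures (100 ng each, with an integrity number above 7.5) was labelled with Cy3 alone for Agilent rat arrays, per the labels' protocols. The submitters' processing notes name Agilent Feature Extraction 11.0.1.1, whose deposited spot intensity values were used. Background subtraction and detrending were done array by array and nothing was scaled between arrays, per the file headers. The deposited software flags, error estimates, and median spot and background intensities were also used. Per the file headers, the array design names build rn4.

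Control spots and outlier spots (623 to 1016 per array) were left out, no spot was saturated, and the log2 values of repeated spots were averaged. Among 45598 probes for genes, 21109 matched 1 gene symbol through the RefSeq table of GRCr8, 0 matched several and 24489 matched none. A repeated probe was detected where over 50% of its spots were well above background. Because 34.2% of probes were detected on all arrays, the 75th percentile was taken over those. A gene took its brightest probe. With 1 group no contrast was tested. The self-test on simulated data checked the scaling and the SD.

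The members and gene lists were chosen with earlier results of these data known. Named genes were the 10 members, 18 fixed partners, the 2 detected genes with the largest SD of each pathway list and the 3 genes most like the most variable member; marker genes were named after their values were seen. Some genes that this rule names are not reported here. Alternatives were run with Python 3.11.15 and limma 3.58.1 in R 4.3.3; normexp with an offset of 50 used the median spot intensity.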

Additional observations from a re-analysis of the deposited data

Results flagged for a closer look

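Vcl, the vinculin gene, read -1.94 on replicate 4 against -2.09 to -2.09 on the other 3 arrays, a gap that was 0.965 of its whole range, above Dixon's 95% critical value for 4 samples. The range itself was 1.11-fold. Of 35 probes looked at in this way this was 1, and chance flags about 1 in 20.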

How the results depend on the processing

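The count of 8 integrin genes detected on all arrays was the same under the positive-and-significant flag, with all spots of a probe required, with the brightest probe alone and without any replicate. The median SD was 0.222 and became 0.376 with quantile normalization; the cause was not tested. Over the other settings it ran from 0.198 with normexp to 0.317 with the percentile of all non-control probes, and without each replicate in turn from 0.206 to 0.251. The count of genes with a range above 2-fold was 1 in every setting on 4 arrays and 0 to 1 without each replicate, because Itgb3 alone passed. Among the 8 genes, the SD moved by over 1.5 times in 5 when arrays were scaled on their median, in 4 under quantile normalization and in 7 with the percentile of all probes, and in 0 with normexp, the mean over probes, outlier spots kept or central spots left out. No paired analysis was possible because there is 1 group. All 4 arrays lay on 1 slide, so a slide block could not be fitted. Signal over background limits Itgal and the dimmer Itgb3 probe.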
